A study of Mus musculus with 6 samples.

Results

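The Ikaros family consists of 5 zinc finger transcription factors, encoded by Ikzf1 (Ikaros), Ikzf2 (Helios), Ikzf3 (Aiolos), Ikzf4 (Eos) and Ikzf5 (Pegasus). Members were chosen by their symbols in the gene annotation of the count matrices, and all 5 were found among its 28048 genes. Ikaros proteins bind DNA through zinc fingers near the N terminus and pair with themselves and with each other through zinc fingers at the C terminus, and they recruit chromatin remodelling and co-repressor complexes such as NuRD. Ikaros is required for lymphoid development and restrains the growth of T-cell precursors. Helios, Aiolos and Eos are known from later T cells, regulatory T cells, B cells and innate lymphoid cells (ILCs), whereas less is known of Pegasus.

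The study asked how the timing of Bcl11b activation, a step of T-cell commitment, affects the choice between T and innate lymphoid fates. Wild-type (WT) mice were compared with mice in which a distal timing enhancer of Bcl11b was deleted from both alleles (ΔTE), and in both genotypes Bcl11b carried an mCitrine reporter in its 3′ untranslated region. CD117-enriched bone marrow of mice aged 2 to 4 months, males and females combined and pooled from 6 to 8 animals per genotype, was grown with Flt3-L and IL-7 on OP9-DL1, a mouse stromal line that presents a Notch ligand. For experiments on NK cells and ILCs, of which this is one by the study's methods, the cytokines IL-2, IL-15 and SCF were added as well, so these were not cultures for T cells alone. Progenitors were sorted as DN1 (CD44-positive, CD25-negative), DN2a (CD44-positive, CD25-positive, Bcl11b-negative) or DN2b (CD44-positive, CD25-positive, Bcl11b-positive), put back on OP9-DL1 for 4 days, fixed, and profiled as nuclei by sci-RNA-seq3, which labels RNA with unique molecular identifiers (UMIs) by combinatorial indexing. The 6 libraries were thus WT and ΔTE cells from a DN1, a DN2a or a DN2b start, with 1 library per condition, each spread over 3 reverse-transcription wells. Wells are taken here as technical parts of 1 library, and neither the paper nor the sample titles say whether they came from 1 culture. No difference between libraries thus had a replicate check, and none was tested.

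Each library's files held between 173113 and 208535 barcodes, of which between 8068 and 20141 had at least 200 genes. After removal of barcodes with over 2000 UMIs or over 30% mitochondrial UMIs, 60671 cells with 31711682 UMIs remained, at a median of 434 UMIs per cell. These are the limits given in the study's methods, but they left fewer cells than the study states, and the step that differs was not found. In WT libraries 10925 DN1-start, 19489 DN2a-start and 4968 DN2b-start cells were kept, with 5994462, 9048728 and 2732285 UMIs. In ΔTE libraries these were 10294, 11594 and 3401 cells, with 5898630, 6320441 and 1717136 UMIs. No cell barcode was shared between libraries (0 barcodes).

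Bcl11b itself, whose counted sequence lies outside the deleted enhancer, could check the timing only. It stood at 235, 534 and 856 UMIs per 1000000 (CPM) in WT cells from the DN1, DN2a and DN2b start, and at 89.3, 256 and 539 CPM in ΔTE cells. It was thus lower in ΔTE than in WT at each start, and higher in each later start of either genotype. DN2a and DN2b cells were sorted as Bcl11b-negative and Bcl11b-positive, so the order of these starts is no separate check of the timing. Libraries also differed in quality measures: the median mitochondrial share ranged from 20.9% to 23.9%, except in WT cells of the DN2a start, where it was 13.3%. Well 2 of the ΔTE DN2a library stood apart, with 12.98% stroma-like cells against 2.78% and 1.79% in its other wells. Several ratios and the correlations of members are therefore also given without it. Counts over all genes, list genes and levels within cell groups are given only with it. It held 504 of the 691 stroma-like cells of that library.

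In the GENCODE M21 annotation of GRCm38, matched by Ensembl ID, Ikzf1 (ENSMUSG00000018654) lies at chr11:11685003-11772926 on the plus strand. The other members lie on minus strands: Ikzf2 (ENSMUSG00000025997) at chr1:69531214-69687245, Ikzf3 (ENSMUSG00000018168) at chr11:98464902-98546031, Ikzf4 (ENSMUSG00000002578) at chr10:128630843-128645991 and Ikzf5 (ENSMUSG00000040167) at chr7:131388652-131410521. The submitters' processing notes name mm9, and the matrices carry no coordinates, so these positions locate the genes but not the counted bases. All 21870 bases of Ikzf5 lie within the annotated span of Fgfr2 on the same strand, and 5831 of them within Pstk on the opposite strand. Whether counting used strand or introns is not given in the sources used here, so Ikzf5 counts are uncertain. The snRNA gene Gm25106 lies inside Ikzf3 and was also counted separately. Genes that overlap Ikzf1, Ikzf2 and Ikzf4 in this annotation are not among the counted genes.

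Paralogs could exchange reads only where they share sequence, so the longest stretches shared between coding sequences of the members were read from GENCODE M21 transcripts. The longest of the 10 pairs was Ikzf1 with Ikzf3, at 26 bases, followed by Ikzf1 with Ikzf4 at 24 bases. Coding sequences of pairs with Ikzf5 shared between 11 and 19 bases. Over whole transcripts, with untranslated regions, Ikzf2 and Ikzf4 shared 32 bases, and pairs with Ikzf5 between 15 and 19 bases.
Ikzf1 and Ikzf3: gatccctttgagtgtaacatgtgtgg
Ikzf1 and Ikzf4: gactccacagatacagagagcaac
Ikzf2 and Ikzf3: atgatggaccaagccatcaa
Introns, which nuclear RNA also covers, were not compared, and read length was not used.

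Ikzf1 and Ikzf2 were among the most abundant transcripts of these cells, while Ikzf4 and Ikzf5 were sparse and Ikzf3 was close to absent before the later starts. Over all cells Ikzf1 had 591 CPM (95% Poisson interval 583 to 600) and ranked 99 of the 18889 genes with a UMI. Ikzf2 had 386 CPM (379 to 393) and ranked 230. Ikzf5 had 25.8 CPM (24.1 to 27.7), Ikzf4 25.7 CPM (23.9 to 27.5) and Ikzf3 4.29 CPM (3.60 to 5.07). These and later intervals cover counting error only. Per kb of gene body the order was Ikzf1 with 6.73 CPM per kb, Ikzf2 with 2.48, Ikzf4 with 1.69, Ikzf5 with 1.18 and Ikzf3 with 0.0529. Per kb of the longest transcript, Ikzf4 came after Ikzf5 (4.98 and 5.83 CPM per kb) and the other places were the same. Ikzf4 and Ikzf5, whose CPM intervals overlap, therefore have no settled order.

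**Figure D1:**
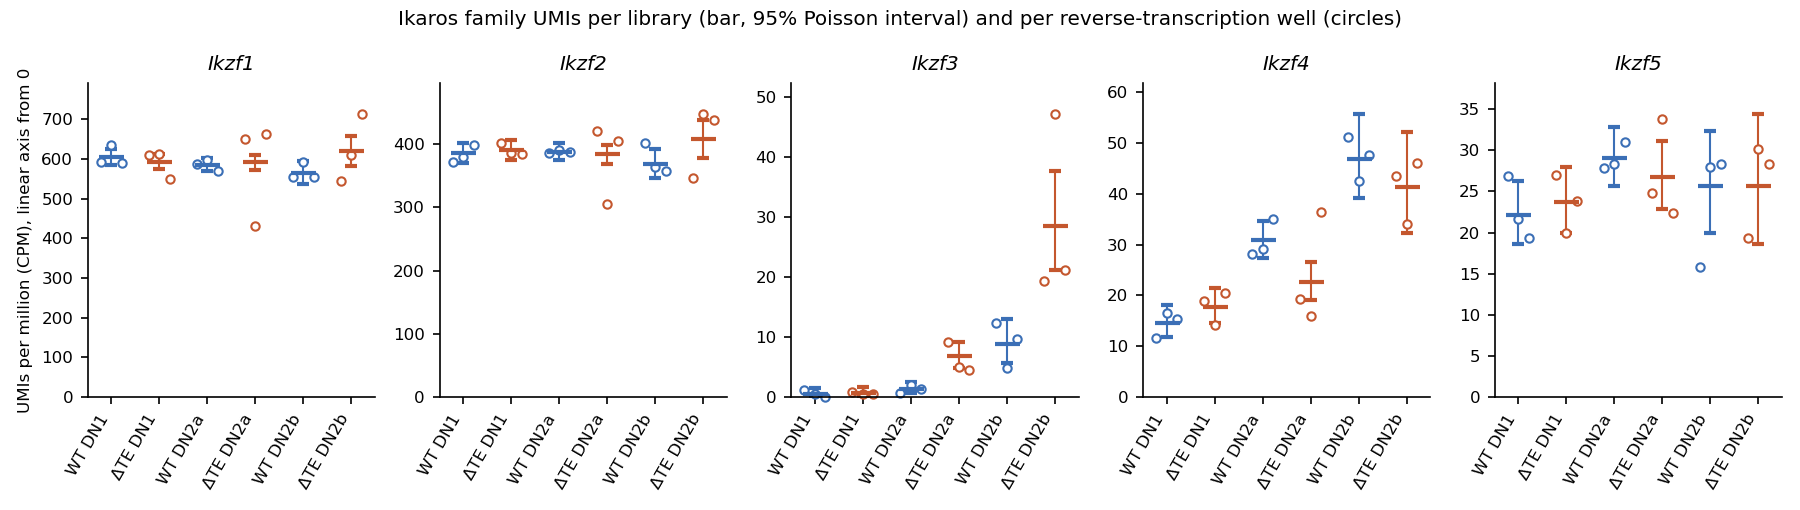
CPM of the 5 Ikaros family members (vertical axes, linear from 0) in each library (bars with 95% Poisson intervals; WT blue, ΔTE orange) and in its 3 reverse-transcription wells (circles). Ikzf3 reached 28.5 CPM in ΔTE and 8.78 CPM in WT cells from the DN2b start, Ikzf4 was lowest in both DN1-start libraries, and well 2 of the ΔTE DN2a library lay low for Ikzf1 at 431 CPM.

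The first comparison followed the members across starts within a genotype. Ikzf4 and Ikzf3 were higher in later starts, whereas Ikzf1 and Ikzf2 differed by less than 1.2-fold between any pair of successive starts. Without a mitochondrial limit, however, both were lower in DN2b than in DN2a by over 1.2-fold in either genotype. Ratios without that limit, here and below, are scaled to all UMIs, mitochondrial ones included. Lifting it added 518 DN2a and 3440 DN2b barcodes in WT, and 4240 and 4441 in ΔTE. The part of their mitochondrial UMIs was not tested. On non-mitochondrial UMIs Ikzf1 had 681 and 729 CPM in WT and 750 and 809 CPM in ΔTE kept cells of DN2a and DN2b. In the added barcodes it had 313 and 493, and 548 and 527 CPM. Ikzf1, the founding member and a regulator of lymphoid specification, had 604, 585 and 565 CPM in WT cells from the DN1, DN2a and DN2b start, and 593, 591 and 620 CPM in ΔTE cells. Ikzf2, which encodes Helios, had 385, 388 and 368 CPM in WT and 390, 383 and 407 CPM in ΔTE cells. Neither gene had a step whose interval excluded equality, but these small steps changed sign with scaling, stroma or the mitochondrial limit. The WT DN2a to DN1 ratio of Ikzf1, for example, was -0.05 (log2), -0.19 when scaled to non-mitochondrial UMIs and 0.18 without a mitochondrial limit.

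Ikzf4, known as a partner of Foxp3 in regulatory T cells, had 14.7, 30.8 and 46.8 CPM in WT cells from the DN1, DN2a and DN2b start, from 88, 279 and 128 UMIs. In ΔTE cells it had 17.8, 22.6 and 41.3 CPM, from 105, 143 and 71 UMIs. It was thus ordered DN1, DN2a, DN2b in both genotypes. The interval of the WT DN1 level (11.8 to 18.1) overlaps that of stroma-like cells, at 9.04 CPM (5.44 to 14.1). The first WT step is therefore taken from a level not shown to be above background. The WT step from DN1 to DN2a was 1.07 (log2; 0.72 to 1.43) and that from DN2a to DN2b 0.60 (0.29 to 0.91), with all 3 wells of the later start above all 3 of the earlier in both. Such a separation was found for 36.1% of all genes in the first of these comparisons and for 4.05% in the second. In ΔTE cells the first step, 0.35 (-0.03 to 0.72), did not exceed counting error, although it was 0.46 (0.08 to 0.84) without stroma-like cells and 0.51 (0.11 to 0.90) without the well that stood apart. The second was 0.87 (0.44 to 1.29). At a limit of 20% mitochondrial UMIs that second ΔTE step was 1.54, and without a mitochondrial limit the second WT step was 0.26 (-0.01 to 0.53). The first ΔTE step was 0.02 without well 3 of the DN2a library, whose 36.5 CPM lay above the 19.3 and 16.0 CPM of the other wells.

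Ikzf5 differed less, with 22.2, 29.1 and 25.6 CPM in WT and 23.7, 26.7 and 25.6 CPM in ΔTE cells from the DN1, DN2a and DN2b start. Only the WT DN2a interval (25.7 to 32.8) lay above that of stroma-like cells, at 17.6 CPM (12.4 to 24.3). In the other libraries the intervals overlapped, so Ikzf5 was not shown to be above that level, nor to be equal to it. Stroma-like cells had 0.682 times the Ikzf5 level of all cells (0.483 to 0.932). Whether their level is background for this gene was not tested. This limits its steps, ratios and correlations here and below. The WT step of Ikzf5 from DN1 to DN2a was 0.39 (log2; 0.08 to 0.70), also with all later wells above the earlier. It became 0.24 (-0.06 to 0.56) when scaled to non-mitochondrial UMIs and 0.27 (-0.09 to 0.64) without well 3 of the WT DN1 library. The median of all genes also moved in that comparison, by 0.14, against -0.01 with non-mitochondrial scaling. In the WT comparison of DN2b with DN2a it moved by -0.18, against -0.03.

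Of the 4 members with at least 100 UMIs over both libraries, 2 (Ikzf4 and Ikzf5) were past 1.2-fold between DN2a and DN1 start in WT, where 42.6% of all genes were past that fold in either direction. In the WT comparison of DN2b with DN2a it was 1 member, Ikzf4, against 40.5% of genes. In ΔTE cells it was again Ikzf4, between DN2a and DN1 start against 31.9% of genes, and between DN2b and DN2a start against 34.9%. Of the WT genes past the fold 81.3% were higher in DN2a than in DN1, against 55.0% with non-mitochondrial scaling and 49.9% with TMM factors. For DN2b against DN2a these were 10.6%, 32.7% and 38.0% in WT, and 34.2%, 42.5% and 44.8% in ΔTE cells. Stroma-like cells made up 9.09% of the WT DN2a library against 2.47% and 3.26% of the WT DN1 and DN2b libraries, and their part in these steps was not tested beyond leaving them out. Without them the WT steps of Ikzf4 were 1.17 and 0.53.

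Ikzf3, which encodes Aiolos, a factor of B cells and of mature innate and T lymphocytes, showed the steepest order. In WT cells it had 0.500 CPM from 3 UMIs at the DN1 start, 1.44 CPM from 13 UMIs at DN2a and 8.78 CPM from 24 UMIs at DN2b. In ΔTE cells it had 0.678 CPM from 4 UMIs, 6.80 CPM from 43 UMIs and 28.5 CPM from 49 UMIs. Both DN1-start libraries were therefore near the floor of 3 UMIs, and the intervals of the DN2a and DN2b libraries did not overlap within either genotype. The DN1-start levels and the WT DN2a level were not shown to be above that of stroma-like cells, 0.952 CPM (0.115 to 3.44). Steps from these libraries therefore compare with a level not shown to be above background. The WT step from DN1 to DN2a was 1.52 (log2; -0.34 to 3.97), within counting error, while the ΔTE step was 3.33 (1.87 to 5.27). From DN2a to DN2b the WT step was 2.61 (1.58 to 3.71) and the ΔTE step 2.07 (1.45 to 2.69), with all later wells above all earlier wells. The same held for 4.05% of all counted genes in WT and 4.89% in ΔTE cells. With at most 20% mitochondrial UMIs the WT step from DN2a to DN2b was 3.71. Without a mitochondrial limit the WT step from DN1 to DN2a was 2.24 (0.37 to 4.69).

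The second comparison set ΔTE against WT cells of the same start. Ikzf3 was higher in ΔTE cells from the DN2a and the DN2b start, and Ikzf4 was lower in ΔTE cells from the DN2a start. Ikzf1, Ikzf2 and Ikzf5 differed by less than 1.2-fold at every start, although Ikzf5 at some other settings, and Ikzf2 without 1 well, passed that fold.

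At the DN2a start ΔTE cells had 6.80 CPM of Aiolos transcripts (4.92 to 9.16) and WT cells 1.44 CPM (0.765 to 2.46), a 4.74-fold difference (log2 2.24; 1.32 to 3.26). The WT level was not shown to be above that of stroma-like cells of all libraries, 0.952 CPM (0.115 to 3.44). This fold thus compares ΔTE cells with a level not shown to be above background. The ΔTE wells had 9.15, 4.98 and 4.48 CPM and the WT wells 0.761, 2.05 and 1.33 CPM. At DN2b the ΔTE library had 28.5 CPM (21.1 to 37.7) and the WT library 8.78 CPM (5.63 to 13.1), 3.25-fold more (log2 1.70; 0.97 to 2.47). Both intervals lay above that of stroma-like cells of all libraries, but neither level could be placed above the stroma-like cells of its own library. These had 15.8 CPM (1.92 to 57.2) from 2 UMIs in WT and no UMI in ΔTE, where the limit of 3 UMIs is 90.1 CPM. The ΔTE wells had 19.3, 47.2 and 21.2 CPM and the WT wells 12.3, 4.86 and 9.69 CPM. All 3 ΔTE wells thus lay above all 3 WT wells at both starts, as did the wells of one or the other library for 20.2% of all genes counted at the DN2a start and 17.9% at the DN2b start. With under 100 UMIs over both libraries Ikzf3 itself was not among those genes.

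Leaving out any 1 well kept the DN2a ratio between 1.72 and 2.67 and the DN2b ratio between 1.2 and 1.94. With at most 20% mitochondrial UMIs the DN2b ratio was 0.78 (-0.32 to 1.85), which no longer exceeded counting error. From the DN1 start, 4 and 3 UMIs gave a ratio of 0.44 (-2.13 to 3.21), so no difference was detectable at this depth. Whether the genotype difference depends on the start was not tested.

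Eos transcripts at the DN2a start numbered 22.6 CPM (19.1 to 26.7) in ΔTE and 30.8 CPM (27.3 to 34.7) in WT cells, 0.734 times the WT level (log2 -0.45; -0.75 to -0.15). The ΔTE wells, at 19.3, 16.0 and 36.5 CPM, surrounded the WT wells at 28.2, 29.2 and 35.0 CPM. The ratio was -0.77 (-1.14 to -0.42) without well 3 of the ΔTE library, -0.29 (-0.61 to 0.03) without well 2 and -0.27 (-0.64 to 0.08) without well 1, so the difference rests on single wells. The median of all genes moved by -0.14 in this comparison, and with non-mitochondrial scaling, which brought that median to -0.01, the Ikzf4 ratio was -0.32 (-0.62 to -0.02). From the DN1 start, where the WT level was not shown to be above that of stroma-like cells, it was 0.28 (-0.14 to 0.70), or 1.21-fold. It was within 1.2-fold without stroma-like cells (0.23), with at most 20% mitochondrial UMIs (0.13) and without a mitochondrial limit (0.15). At DN2b it was -0.18 (-0.62 to 0.25), and with at most 20% mitochondrial UMIs it was 0.33 (-0.51 to 1.13), in the opposite direction.

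For the most abundant pair the DN2a-start libraries were level, at 591 CPM in ΔTE and 585 CPM in WT for Ikzf1 (log2 0.01; -0.05 to 0.07) and 383 and 388 CPM for Ikzf2 (log2 -0.02; -0.09 to 0.06). That balance depended on the well that stood apart. Ikzf1 had 431 CPM in well 2 of the ΔTE library against 651 and 663 CPM in wells 1 and 3, and Ikzf2 305 CPM against 420 and 404 CPM. Without well 2, a choice made after seeing the data, the ratio was 0.16 (0.10 to 0.23) for Ikzf1 and 0.10 (0.01 to 0.18) for Ikzf2. Without a mitochondrial limit the same ratios, scaled to all UMIs, were -0.16 and -0.18. That setting added 4240 barcodes in ΔTE and 518 in WT, and the part of their mitochondrial UMIs was not tested. On non-mitochondrial UMIs Ikzf1 had 750 CPM in ΔTE and 681 CPM in WT kept cells, and 548 and 313 CPM in those barcodes. Ikzf2 had 487 and 451 CPM, and 374 and 277 CPM. Left-out wells gave -0.12 to 0.16 for Ikzf1 and -0.14 to 0.10 for Ikzf2, so neither direction held across settings.

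At DN2b ΔTE cells had 620 CPM of Ikzf1 (583 to 658) and 407 CPM of Ikzf2 (377 to 438), and WT cells 565 CPM (537 to 594) and 368 CPM (346 to 392). The ratios, 0.13 (0.02 to 0.25) and 0.14 (0.00 to 0.29), were small, the wells of the genotypes overlapped for both genes, and the Ikzf1 ratio was -0.06 (-0.14 to 0.03) without a mitochondrial limit. Without well 1 of the ΔTE library the Ikzf2 ratio was 0.26 (0.10 to 0.42), just past 1.2-fold. From the DN1 start the ratios were -0.03 (-0.10 to 0.04) and 0.02 (-0.06 to 0.10). Ikzf5 ratios were 0.10 (-0.26 to 0.45), -0.12 (-0.41 to 0.16) and 0.00 (-0.58 to 0.56) from the DN1, DN2a and DN2b start. The DN2a ratio was past 1.2-fold without the well that stood apart, at -0.28 (-0.62 to 0.05). Without a mitochondrial limit, scaled to all UMIs, it was so as well, at -0.30 (-0.57 to -0.04). On non-mitochondrial UMIs Ikzf5 had 34.0 CPM in ΔTE and 33.8 CPM in WT kept cells of that start. The barcodes over the limit had 25.4 and 31.3 CPM, the latter from 6 UMIs. The DN2b ratio was past 1.2-fold with at most 20% mitochondrial UMIs, at -0.43 (-1.72 to 0.71).

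Among the 4 members with enough UMIs, 1 (Ikzf4) was past 1.2-fold higher in ΔTE from the DN1 start, where 8.41% of genes were higher and 8.63% lower. From the DN2a start 0 were higher and 1 (Ikzf4) was lower, against 4.47% and 26.6% of genes. From the DN2b start 0 were past the fold in either direction, against 15.0% higher and 16.9% lower. None of the 4 had wells that separated the genotypes at the DN1 start, where 17.2% of genes did, nor at the other starts. Scaling changed the DN2a split of all genes: 14.4% of those past the fold were higher in ΔTE, against 37.1% with non-mitochondrial scaling and 41.5% with TMM factors. In the DN2a libraries stroma-like cells made up 5.96% in ΔTE and 9.09% in WT, and the median mitochondrial share was 20.9% and 13.3%. Leaving aside the ΔTE well that stood apart, stroma-like cells made up 2.78% and 1.79% of wells 1 and 3. The part of these measures in the ratios was not tested beyond the settings given.

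The third comparison placed the members in groups of cells defined by marker genes, none of them an Ikaros gene. A cell joined a group with at least 2 marker UMIs of that class and more than of any other, which left 45914 cells ungrouped. Aiolos transcripts were concentrated in ILC/NK-like cells, Helios was also highest there, and Eos was somewhat higher in T-like than in all cells. Ikzf2 was lower in myeloid-like and antigen-presenting-like cells than in all cells, though not at every setting.

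The 798 ILC/NK-like cells had a UMI of 15 of 18 markers, most often Cd160 (783 UMIs), and none of Klre1, Il5 or Areg. Genes not used for grouping had 385 CPM for Id2 and 506 CPM for Gata3 in this group, against 53.6 and 168 CPM in all cells. Ikzf3 had 95.7 CPM (70.6 to 127) in them against 4.29 CPM in all cells, a 22.3-fold difference (17.3 to 27.8). With a single marker UMI sufficing for membership the log2 ratio was 3.66 in place of 4.48. Against library levels weighted by their ILC/NK-like UMIs, a comparison chosen after seeing the data, the difference was 9.35-fold (6.90 to 12.4). Ikzf2 had 728 CPM (655 to 806), 1.88-fold the level of all cells, and Ikzf1 793 CPM (717 to 875), 1.34-fold. Ikzf4 had 29.9 CPM (16.7 to 49.3) and Ikzf5 31.9 CPM (18.2 to 51.8), neither of which differed from all cells beyond counting error. In total 4 of 5 members (all but Ikzf4) were past 1.2-fold higher and 0 lower, against 20.9% and 34.8% of genes.

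The 3223 T-like cells had UMIs of 7 of the 8 T-cell markers in the matrices, with Cd3g the most abundant (4084 UMIs) and Cd8b1 at 0, and they had 821 CPM of Bcl11b against 367 CPM in all cells. Ikzf4 had 40.9 CPM (32.5 to 50.9) in these cells, 1.59-fold the level in all cells (1.28 to 1.96). Since libraries differ in Ikzf4 and in their T-like share, the level was also set against the library levels weighted by their T-like UMIs, a comparison chosen after seeing the data. It was then 1.27-fold (1.01 to 1.58). By library T-like cells had 26.4, 51.0 and 54.6 CPM in WT and 8.51, 18.4 and 49.1 CPM in ΔTE, which is below the library level at the DN1 and DN2a start of ΔTE. Ikzf1 had 612 CPM, Ikzf2 350 CPM, Ikzf3 4.55 CPM and Ikzf5 23.8 CPM, each within 1.2-fold of all cells. So 1 member was higher and 0 were lower, against 10.8% and 26.3% of genes.

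Myeloid-like cells (701 cells, 19 of 19 markers with a UMI, led by Mpo) had 653 CPM of Ikzf1 but 256 CPM of Ikzf2 (211 to 308), 0.663 times the level in all cells. When 1 marker UMI sufficed the Ikzf2 log2 ratio was -0.26 in place of -0.59, which is within 1.2-fold. In the DN2a-start libraries, from 11 and 10 UMIs, Ikzf2 had 434 CPM in WT and 396 CPM in ΔTE myeloid-like cells. Ikzf4 had 4.54 CPM from 2 UMIs, a log2 ratio of -2.50 (-5.55 to -0.65), and Ikzf3 had 0 UMIs. The limit of 3 UMIs used for a count of 0 is 6.80 CPM here, above the level in all cells, so Ikzf3 is not counted in either direction. Thus 2 members were lower and 1, Ikzf5 with 31.7 CPM (17.4 to 53.3), was higher though within counting error, against 39.3% and 24.7% of genes. Against weighted library levels Ikzf4 was 0.253 times as high (0.0306 to 0.912).

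Antigen-presenting-like cells, 201 in all with UMIs of 4 of 4 markers led by H2-Aa, joined a high Ikzf1 level with the lowest Ikzf2 level outside stroma. They had 783 CPM of Ikzf1 (624 to 971) and 142 CPM of Ikzf2 (79.2 to 233), 0.366 times that of all cells. With at most 20% mitochondrial UMIs the Ikzf1 log2 ratio to all cells was -0.01 in place of 0.40. Progenitor-like cells (3793 cells, 8 of 8 markers, led by Erg) lay near the whole for the abundant genes, with 607 CPM of Ikzf1 and 392 CPM of Ikzf2, and had no Ikzf3 UMI, where the limit of 3 UMIs is 1.15 CPM.

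A group of 2796 cells that was chosen almost wholly by Cpa3, with 97.8% of its marker UMIs, had 501 CPM of Ikzf2 (470 to 534) and 691 CPM of Ikzf1 (654 to 729). It is called here by that gene and not by a cell type. The 111 cells of the Rag/Dntt group had 80.7 CPM of Ikzf4 (26.2 to 188) from 5 UMIs, within counting error of weighted library levels, and no Ikzf3 UMI, where the limit of 3 UMIs is 48.4 CPM. Ungrouped cells, the bulk of the libraries, had 615 CPM of Ikzf1, 401 CPM of Ikzf2, 3.41 CPM of Ikzf3, 27.0 CPM of Ikzf4 and 26.7 CPM of Ikzf5.

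Stroma-like cells, with UMIs of 10 of 10 markers led by Col1a2, served as the background level. They had 2635 CPM of Cxcl12, which was not used for grouping, against 199 CPM in all cells. In these 3114 cells Ikzf1 had 145 CPM (129 to 162), Ikzf2 119 CPM (105 to 135), Ikzf4 9.04 CPM (5.44 to 14.1), Ikzf3 0.952 CPM and Ikzf5 17.6 CPM (12.4 to 24.3). All 5 members were past 1.2-fold lower and 0 higher, against 50.1% and 30.4% of genes. Ikzf5 came nearest to the level of all cells, at 0.682 times, and Ikzf1 stood at 0.245 times. The interval of the 2 Ikzf3 UMIs there (0.115 to 3.44 CPM) overlaps those of both DN1-start libraries and holds that of the WT DN2a library. Ikzf3 was thus not shown to be above background in these 3 libraries. The intervals of the ΔTE DN2a library and of both DN2b libraries lay above it. Both UMIs came from the 162 stroma-like cells of the WT DN2b library, and the other libraries had none there. The limit of 3 UMIs for such a count of 0 is 14.9 and 2.62 CPM in the WT DN1 and DN2a libraries, and 27.3, 6.16 and 90.1 CPM in ΔTE from the DN1, DN2a and DN2b start. Stroma-like cells of single libraries thus held too few UMIs to place Ikzf3 of any library above its own background beyond counting error.

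**Figure D2:**
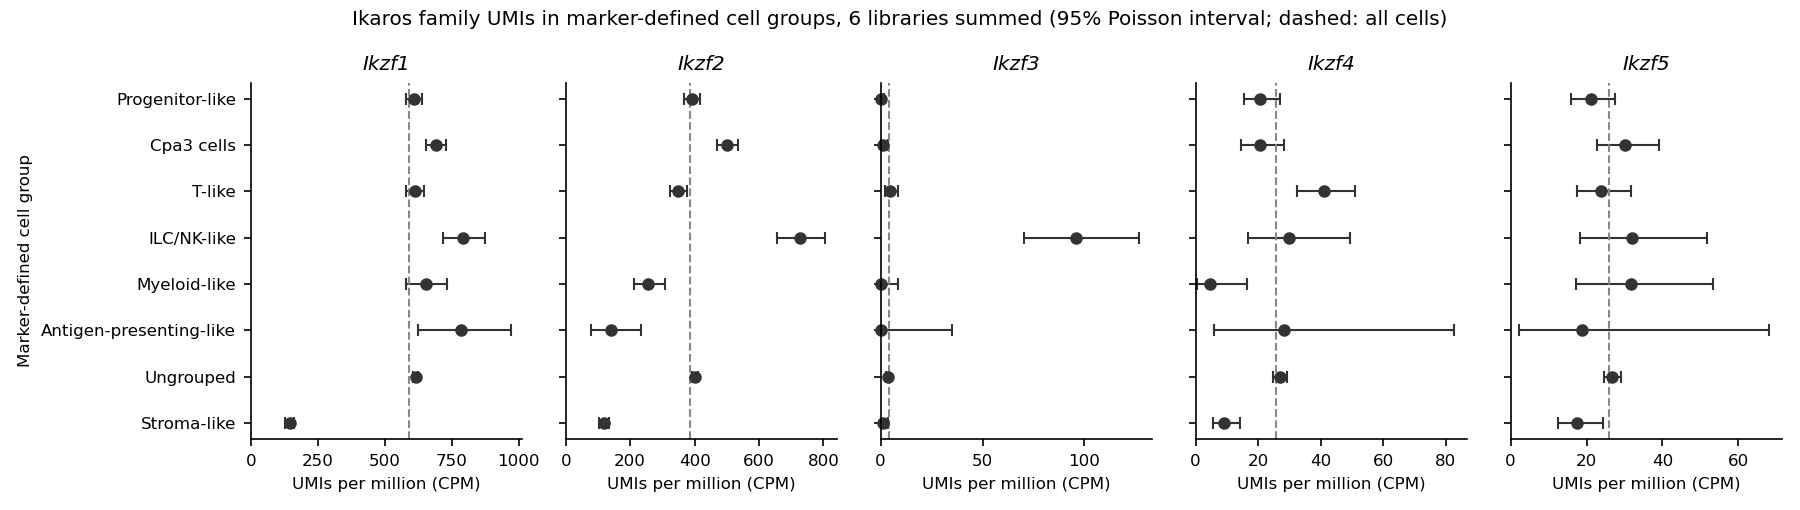
CPM of each member (horizontal axes, linear from 0) in marker-defined groups of cells, 6 libraries summed, with 95% Poisson intervals; the dashed line is the level in all cells. Ikzf3 reached 95.7 CPM in ILC/NK-like cells against 4.29 CPM in all cells, and stroma-like cells were lowest for Ikzf1 at 145 CPM and Ikzf2 at 119 CPM.

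From the highest to the lowest Ikzf1 level the groups ran ILC/NK-like, antigen-presenting-like, Cpa3, myeloid-like, ungrouped, T-like, progenitor-like and stroma-like cells, leaving out the small Rag/Dntt group. Only the last lies apart from its neighbour, since the intervals of the other neighbours overlap. For Ikzf2 the order was ILC/NK-like, Cpa3, ungrouped, progenitor-like, T-like, myeloid-like, antigen-presenting-like and stroma-like cells. Its first 3 groups were separated by their intervals, as were T-like and myeloid-like cells, while the interval of ungrouped cells overlapped that of progenitor-like cells, and that of progenitor-like cells overlapped that of T-like cells. Antigen-presenting-like cells, with a wide interval, overlapped both myeloid-like and stroma-like cells, which did not overlap each other.

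The ILC/NK-like share of cells had the same order of starts as Ikzf3 within either genotype, though the intervals of the WT DN1 and DN2a libraries overlapped in both measures. It was 0.513%, 0.703% and 1.59% in WT cells from the DN1, DN2a and DN2b start, and 0.923%, 1.86% and 6.32% in ΔTE cells. ILC/NK-like cells held 1.58% of all UMIs but 48 of the 136 Ikzf3 UMIs, or 35.3%. Among ILC/NK-like cells of the DN2a start, those of ΔTE had 75.2 CPM of Ikzf3 (36.1 to 138) and those of WT 52.0 CPM (14.2 to 133), which gives 0.53 in log2 (-1.26 to 2.66). Among those of the DN2b start, ΔTE had 165 CPM (102 to 252) and WT 233 CPM (116 to 417), which gives -0.50 (-1.62 to 0.70). Within ILC/NK-like cells no genotype difference was thus detectable at this depth, with between 4 and 21 Ikzf3 UMIs per library.

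Outside that group Ikzf3 was higher in ΔTE from the DN2a and DN2b starts. From the DN1 start, 2 UMIs in ΔTE and 3 in WT gave -0.56 in log2 (-4.14 to 2.57), so no difference was detectable there. At DN2a the remaining ΔTE cells had 5.33 CPM against 1.00 CPM, or 2.41 in log2 (1.32 to 3.66). At DN2b they had 17.6 CPM against 4.84 CPM, or 1.86 (0.87 to 2.94). T-like cells contributed 7 UMIs in ΔTE (31.3 CPM; 12.6 to 64.4) and 1 UMI in WT (2.18 CPM; 0.0553 to 12.2) at the DN2b start. Most cells outside the group were ungrouped, with too few marker UMIs to place them.

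Ikzf4 also differed between genotypes within T-like cells. At DN2a those of ΔTE had 18.4 CPM of Ikzf4 (7.40 to 37.9) and those of WT 51.0 CPM (35.1 to 71.6), or -1.47 in log2 (-2.89 to -0.27), resting on 7 and 33 UMIs. At DN2b they had 49.1 CPM and 54.6 CPM, or -0.15 (-1.32 to 0.92). The T-like share of cells was 2.13%, 6.08% and 14.0% in WT and 1.51%, 4.97% and 11.1% in ΔTE libraries from the DN1, DN2a and DN2b start, in the same order as Ikzf4 in either genotype. Its part in the Ikzf4 steps was not tested. Helios within ILC/NK-like cells was higher in ΔTE from the DN2a start, with 903 CPM against 598 CPM (log2 0.59; 0.09 to 1.12), and had 849 and 657 CPM from the DN2b start (log2 0.37; -0.22 to 1.00). From the DN1 start its direction was the opposite, with 472 CPM in ΔTE and 569 CPM in WT (log2 -0.27; -1.05 to 0.52), and over all starts the ratio was 0.38 (0.05 to 0.73). Ikzf1 in those DN2b-start cells was lower in ΔTE, with 715 CPM against 1080 CPM (log2 -0.60; -1.11 to -0.07). At DN2a its direction was the opposite, with 933 against 702 CPM (log2 0.41; -0.06 to 0.90), and over all starts the ratio was 0.02 (-0.29 to 0.33). The ratios of this paragraph are named from many over members, groups and starts, and no well was left out within groups. Others also excluded equality, such as Ikzf1 in progenitor-like cells at DN2b (-0.90; -1.73 to -0.15) and in Cpa3 cells at DN2a (-0.23; -0.44 to -0.01).

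The share of cells with a UMI gave the same picture of a broad Ikaros and Helios expression. After thinning each cell to 300 UMIs, which left out cells with fewer, 9659, 14766 and 4413 WT cells and 9284, 10123 and 2939 ΔTE cells from the DN1, DN2a and DN2b start remained. Ikzf1 was found in 16.6%, 15.8% and 15.0% of WT cells and in 16.0%, 16.0% and 17.2% of ΔTE cells, against 3.24% of stroma-like cells. Without thinning these shares ranged from 22.5% to 26.7%. Ikzf2 was found in between 9.95% and 10.7% of thinned cells, against 3.03% of stroma-like cells, and in between 14.8% and 17.8% without thinning. The median depth before thinning was 591 UMIs in stroma-like cells and between 445 and 517 UMIs in the libraries.

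Ikzf3 was found in 0.0406% and 0.204% of thinned WT cells at DN2a and DN2b, and at those starts in 0.227% (0.144 to 0.341) and 0.749% (0.470 to 1.13) of ΔTE cells, against 0.0352% (0.000891 to 0.196) of stroma-like cells. Only the ΔTE DN2b interval lay wholly above that background, so nothing is read from the other shares. Without thinning the DN2b-start shares were 0.403% in WT and 1.32% in ΔTE. In ILC/NK-like cells the thinned share was 2.46% (1.47 to 3.86). Ikzf4 was found in between 0.435% and 1.22% of thinned cells of a library, against 0.282% (0.122 to 0.554) in stroma-like cells, with the DN1-start shares within that interval. Without thinning its shares ran from 0.723% to 2.23%. Ikzf5 shares, between 0.673% and 0.952%, lay within the interval of stroma-like cells (0.349 to 0.957), so nothing is read from them, and without thinning they ran from 1.10% to 1.36%.

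As a description of pattern, members with at least 500 UMIs were correlated with 7986 genes over the 18 wells, which share libraries, depth and composition. Ikzf4 ran most closely with Satb1, a chromatin organiser of T cells (Pearson r 0.95), followed by Ppp1r16b (0.92), Cyth1 (0.92), Hdac4 (0.91) and Desi1 (0.91). Without the well that stood apart Satb1 was again first, also at 0.95, and Dntt and Lat were among the first 5. Ikzf1 ran with Senp6 (0.88), Pou2f1 (0.87), Fnbp1 (0.86), Cux1 (0.84) and Zfp638 (0.83), and Ikzf2 with Pou2f1 (0.89), Msantd2 (0.85), Fnbp1 (0.83), Ckap5 (0.83) and Wapl (0.83). Without that well the first genes were Tmco3 (0.89) for Ikzf1 and Depdc1a (0.86) for Ikzf2. The r between Ikzf1 and Ikzf2 was 0.82 with it and 0.64 without. Ikzf5 ran with Psmd7, a proteasome subunit (0.88), Ddx24 (0.83), Mov10 (0.82), Rbm45 (0.80) and Gga3 (0.77). Over the 9 cell groups, which are few, Ikzf1 ran with Celf2 (0.99), Xpo1 (0.99), Diaph1 (0.99), C2cd3 (0.99) and Diaph3 (0.98). Ikzf4 ran there with Cdkn2aipnl (0.98), Tmco1 (0.97), Zfp362 (0.96), Ngly1 (0.95) and Tox4 (0.94), and Ikzf5 with Zfp865 (0.96), Hbs1l (0.95), Tor4a (0.95), BC030867 (0.94) and Eif1ax (0.94). Over the same groups Ikzf2 ran with Bop1 (0.98), Rftn1 (0.98), Zbtb16 (0.98), Cep57 (0.97) and Kit (0.97).

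Among 18 co-repressor and remodelling partners of Ikaros proteins, no gene was past 1.2-fold in the same direction between genotypes at all 3 starts. The share of all genes that is so is not given, and this absence is not read as a trait of the list. At the DN1 start 1 of 18 was higher and 0 lower in ΔTE, at DN2a 0 and 1 of 18, and at DN2b 0 and 1 of 17. Of all genes 8.41% were higher and 8.63% lower at DN1, 4.47% and 26.6% at DN2a, and 15.0% and 16.9% at DN2b. Their median log2 ratios were 0.03, -0.09 and 0.03, beside 0.00, -0.14 and -0.01 for all genes. The most abundant pair was Chd4, the NuRD ATPase, with ratios of 0.18, -0.13 and 0.04, and Smarca4, the BAF complex ATPase, with 0.09, -0.21 and -0.02.

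Of 22 genes known to be bound or regulated by Ikaros factors in lymphoid cells, 11 at the DN1 start, 14 at DN2a and 12 at DN2b had enough UMIs to be counted. In ΔTE 1 was higher and 1 lower at the DN1 start, 2 and 6 at DN2a, and 3 and 2 at DN2b, with medians of -0.01, -0.23 and -0.01. The shares of all genes are those just given, so at DN2a 26.6% were lower. Past the fold in the same direction at all 3 starts, whatever their UMIs, were Notch3, Il7r and Rag1. The share of all genes that does so is not given, so these genes are named and nothing is read about the list. Il7r, the interleukin 7 receptor chain, had 67.7, 120 and 123 CPM in WT and 91.0, 152 and 179 CPM in ΔTE cells, ratios of 0.43, 0.34 and 0.54. Notch3 was lower in ΔTE, by ratios of -0.42, -0.44 and -0.65, although the DN1 interval (-0.87 to 0.01) included equality. The ratios of Rag1, a recombinase subunit, were 0.74, 0.29 and 0.67, and exceeded counting error only at DN2b (0.03 to 1.31).

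Between starts the same list was mostly higher in DN2a than in DN1. It holds Il2ra, which encodes the CD25 used to sort these starts, and Cd3d, Ptcra, Rag1, Rag2 and Dntt, markers of the T-like and Rag/Dntt groups. The T-like share was also higher, at 6.08% against 2.13% in WT and 4.97% against 1.51% in ΔTE cells. The part of the sort and of this share was not tested. In WT 12 of 15 counted genes were higher and 1 lower, with a median log2 ratio of 0.57 beside 0.14 for all genes, of which 34.6% were higher and 7.97% lower. In ΔTE cells 10 of 15 were higher and 2 lower, with a median of 0.52 beside -0.01, and of all genes 17.9% were higher and 14.1% lower. From DN2a to DN2b 3 of 14 were higher and 1 lower in WT, and 4 of 14 higher and 0 lower in ΔTE cells. Medians were 0.10 and 0.17, beside -0.18 and -0.05 for all genes, of which 4.30% were higher and 36.2% lower in WT and 11.9% and 22.9% in ΔTE cells. Of the co-repressor partners 6 of 18 were higher and 0 lower in DN2a than in DN1 in WT, near the share of all genes, and 2 and 1 of 18 in ΔTE cells. From DN2a to DN2b 0 were higher and 1 of 18 lower in WT, and 3 of 17 higher and 0 lower in ΔTE cells.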

How the data were processed

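UMI counts per gene and cell, which the authors deposited as 1 matrix per library, were used as counts. Submitters' notes name mm9, and the strand and intron settings of counting are not given in the sources used here. A barcode was kept as a cell with 200 or more genes, unless it had over 2000 UMIs or a mitochondrial share over 30%. No doublet caller was run, and a limit of 1000 UMIs was an alternative. UMIs were summed per library, well or marker group and scaled to CPM. Intervals are exact 95% Poisson for levels, conditional binomial for ratios and Clopper-Pearson for shares. A count of 0 is given a limit of 3 UMIs. The study's Wilcoxon tests over cells were not repeated. Background counts used genes with at least 100 UMIs over both libraries. The members and lists were chosen with earlier results of these data known. Named beside the members were, for each with at least 500 UMIs, the 5 genes of highest Pearson r of log2(CPM + 10), and list genes past 1.2-fold in 1 direction at all 3 starts or, failing these, the 2 most abundant. Alternatives changed scaling, cell limits, marker UMIs, thinning, gene minimum and wells. The alternative without a mitochondrial limit was scaled to all UMIs, and non-mitochondrial scaling was run only with the 30% limit. Cells of the B-cell markers (20 cells, Cd79b the sole marker found) are not named or described. Python 3.11.15 with numpy 2.4.6, scipy 1.17.1, pandas 2.3.3 and matplotlib 3.10.9 was used, and edgeR 4.0.16 in R 4.3.3 for TMM factors only. The code was tested on simulated data.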

Additional observations from a re-analysis of the deposited data

Results flagged for a closer look

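Barcodes left out by the limits on cells also held UMIs of the Ikaros family. They stand here because these barcodes were not analysed with the others. CPM of non-mitochondrial UMIs is used here, since all but 448 of these barcodes were over the mitochondrial limit. In the 23136 barcodes over the mitochondrial limit Ikzf1 had 540 CPM, Ikzf2 361 CPM, Ikzf3 4.95 CPM, Ikzf4 27.3 CPM and Ikzf5 32.1 CPM. On that scale the kept cells had 738, 482, 5.35, 32.0 and 32.2 CPM. In the 448 barcodes over the UMI limit alone Ikzf1 had 558 CPM, Ikzf2 386 CPM, Ikzf4 22.6 CPM and Ikzf5 32.1 CPM, with no Ikzf3 UMI. In the 1252 barcodes over both limits Ikzf1 had 216 CPM, Ikzf2 188 CPM, Ikzf3 2.92 CPM, Ikzf4 13.4 CPM and Ikzf5 20.04 CPM.

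The barcodes over the mitochondrial limit of the DN2b start had 18.3 CPM of Ikzf3 in ΔTE against 4.11 CPM in WT, on the same scale, and those of both DN1-start libraries had none. These barcodes entered no comparison except where the absence of a mitochondrial limit is stated.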

How the results depend on the processing

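With 1 library per condition nothing was tested, and the depth of about 434 UMIs per cell limits Ikzf3, Ikzf4 and Ikzf5 within groups. A fit that pairs the genotypes within the 3 starts, with 2 residual degrees of freedom, was possible and was not run; it would take different sorted populations as replicates. A ratio or share counts as moved when it left the 95% interval of the main value, and as reversed when that interval excluded equality and the sign changed. A count of genes is moved past 1.5 times. The cause was not tested. The well that stands apart was chosen after seeing the data. Of 15 genotype ratios, leaving out wells kept 85 of 90 values and moved 5, and other settings kept 111 of 124, moved 12 and reversed 1. Of 20 start ratios these were 112 of 120 with 8 moved, and 137 of 169 with 32 moved. Of ILC/NK-like levels 24 of 30 were kept and 6 moved, of the other group levels 161 of 181 were kept, 19 moved and 1 reversed. Thinning moved 48 of 60 shares.

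Genotype log2 ratios moved as follows. At most 20% mitochondrial UMIs gave 0.063 for Ikzf1 and 0.14 for Ikzf2 at DN1, and 0.78 for Ikzf3 and 0.33 for Ikzf4 at DN2b. At DN2a Ikzf1 was 0.14 with non-mitochondrial scaling, 0.16 with TMM factors, -0.16 with no mitochondrial limit and 0.16 without the well that stands apart, and Ikzf2 was 0.11, 0.13, -0.18 and 0.10. Ikzf1 at DN2b was reversed to -0.057 with no mitochondrial limit, a setting scaled to all UMIs. Over left-out wells at DN2a Ikzf1 ranged from -0.12 to 0.16, Ikzf2 from -0.14 to 0.10 and Ikzf4 from -0.77 to -0.27.

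For WT DN2a to DN1, Ikzf1 was -0.19 with non-mitochondrial scaling, -0.22 with TMM factors, 0.18 with no mitochondrial limit and 0.070 without stroma-like cells. Ikzf2 was -0.14, -0.16, 0.18 and 0.12, and 0.089 with at most 1000 UMIs and -0.083 with at least 300 genes. For WT DN2b to DN2a, Ikzf1 was 0.10 and 0.12 with the scalings, 0.18 with at most 20% mitochondrial UMIs, -0.38 with no limit and -0.14 without stroma-like cells. Ikzf2 was 0.073, 0.10, 0.084 and -0.46 in the first 4 of these, Ikzf3 3.71 with at most 20% and Ikzf4 0.26 with no limit. For ΔTE DN2a to DN1, Ikzf1 was -0.16 with at most 20%, 0.077 without stroma-like cells and 0.14 without the well that stands apart, and Ikzf2 -0.13 with at most 20% and 0.087 without that well. For ΔTE DN2b to DN2a, Ikzf1 was 0.25 with at most 20%, -0.27 with no limit and -0.080 without that well, Ikzf2 0.21 and -0.27 in the first pair, and Ikzf4 1.54 with at most 20%. Over left-out wells ΔTE DN2a to DN1 ranged from -0.14 to 0.14 for Ikzf1 and -0.15 to 0.087 for Ikzf2, and ΔTE DN2b to DN2a from -0.080 to 0.20 and -0.027 to 0.21.

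In ILC/NK-like cells 3 marker UMIs gave 0.59 for Ikzf1, 1.27 for Ikzf2, 4.89 for Ikzf3 and 1.08 for Ikzf5, and 1 marker UMI gave 0.74 for Ikzf2 and 3.66 for Ikzf3. Ikzf1 in antigen-presenting-like cells was reversed to -0.012 with at most 20% mitochondrial UMIs. Genes past 1.2-fold with a minimum of 20 or 500 UMIs, in place of 100, numbered 1379 or 182 higher and 1670 or 162 lower at DN1, 901 or 160 higher and 3796 or 1125 lower at DN2a, and 1870 or 184 higher and 2323 or 220 lower at DN2b.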

Other observations

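The 120 cells with an Ikzf3 UMI were compared with all other cells after their values were seen. Only genes with at least 20 UMIs in the 120 cells entered, and those with the highest folds are named in order. A gene sparse elsewhere could pass that minimum only by being high in these cells, so the selection favours high folds. The folds are therefore a description only, and genes lower in these cells are not given. Icos, a costimulatory receptor of ILCs and T cells and 1 of the ILC/NK markers, had 639 CPM in them against 14.6 CPM in other cells, 43.8-fold more. Rora, a nuclear receptor required by ILC2s, had 1505 CPM against 63.3 CPM, 23.8-fold more. The ectonucleotidase gene Nt5e followed at 19.4-fold, the galectin gene Lgals3 at 14.0-fold, Inpp4b, a lipid phosphatase gene, at 12.8-fold, and Id2, the antagonist of E proteins, at 12.5-fold. Hmga2, Itgae and Maf came next, at 12.1-fold, 11.2-fold and 10.2-fold. Gzmb, which encodes a granzyme, had 2030 CPM against 227 CPM. Itm2c, Ccr2, Cldnd1 and Cd163l1 followed, at between 7.74-fold and 8.80-fold. By the marker groups 42 of these cells were ILC/NK-like, 8 T-like and 66 ungrouped, and their median depth was 522.5 UMIs against 434 UMIs in all cells. By library they numbered 3, 11 and 20 in WT and 4, 37 and 45 in ΔTE from the DN1, DN2a and DN2b start, and the part of this mix in the folds was not tested.

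Within ILC/NK-like cells, Ikzf3 was higher in those with an Icos UMI. The 171 cells with one had 242 CPM of Ikzf3 (156 to 357) and the 627 without had 57.8 CPM (36.6 to 86.7), at median depths of 541 and 537 UMIs. Ikzf1 and Ikzf2 differed less, with 870 and 774 CPM of Ikzf1 and 764 and 718 CPM of Ikzf2. Against levels of ILC/NK-like cells in each library, weighted by the UMIs that the libraries gave to the split, Ikzf3 was 1.74-fold (1.12 to 2.56) with an Icos UMI and 0.685-fold (0.434 to 1.03) without. These splits and weightings were chosen after seeing the data. Icos had the highest fold in cells with an Ikzf3 UMI, and 42 of those 120 cells were ILC/NK-like. The split thus partly restates that fold and is no separate support for it.

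Cells sorted by UMIs of Bcl11b, the T-cell commitment factor, and Zbtb16, which encodes the ILC factor PLZF, differed in Helios, Aiolos and Eos, and less in Ikaros. The 6650 cells with Zbtb16 but no Bcl11b UMI had 522 CPM of Ikzf2 (500 to 544), against 361 CPM (343 to 379) in the 7653 cells with Bcl11b but no Zbtb16 UMI. Ikzf3 was likewise higher in the former, with 10.8 CPM (7.91 to 14.5) against 1.59 CPM (0.641 to 3.28). For Ikzf4 the order was the opposite, with 18.6 CPM (14.6 to 23.2) and 36.6 CPM (31.2 to 42.8). Ikzf1 was higher with Zbtb16 alone, as Ikzf2 was, with 680 CPM (656 to 706) against 603 CPM (581 to 627). The 1038 cells with both lay between the others for Ikzf2, at 490 CPM, and for Ikzf4, at 26.5 CPM. For Ikzf1 they were above both, at 706 CPM (649 to 767), with an interval that overlaps that of Zbtb16 alone. Libraries differ in these genes and gave unequal parts of each split, so the levels were also set against library levels weighted by the UMIs of the split, a comparison chosen after seeing the data. Cells with Zbtb16 alone then had 1.15-fold (1.11 to 1.19) for Ikzf1, 1.35-fold (1.29 to 1.41) for Ikzf2, 2.40-fold (1.75 to 3.21) for Ikzf3 and 0.789-fold (0.623 to 0.986) for Ikzf4. Cells with Bcl11b alone had 1.03-fold (0.988 to 1.07), 0.938-fold (0.892 to 0.985), 0.281-fold (0.113 to 0.580) and 1.18-fold (1.01 to 1.38) for the same genes. The order of the 2 splits was thus that of the unweighted levels for each gene, and for Ikzf4 the difference was smaller. Median depths were 532, 477 and 660 UMIs in these 3 groups and 414 UMIs in cells with neither, so depth differed with the split, and its part was not tested.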
